A study of Mus musculus with 14 samples.

Results

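The 10 genes described here make ceramides, build the glycolipid antigen recognised by the O4 antibody or, for Galc, break down galactosylceramide. They are the ceramide synthases Cers1, Cers2, Cers3, Cers4, Cers5 and Cers6, and the galactolipid genes Fa2h, Ugt8a, Gal3st1 and Galc. They were chosen by gene symbol and not by their levels, though with earlier results of these data known. All 10 were found among the 18355 genes of the table. All 10 also passed the filter for testing, a mean normalised count of at least 10 over the 14 libraries, which left 15565 genes.

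RNA was sequenced from mouse brain cells at postnatal day 8, captured on magnetic microbeads against O4 (immature oligodendrocytes, called O4) or against CD140a, the Pdgfra receptor (oligodendrocyte precursor cells, called OPC). In 2aOKO mice a floxed allele of Mfsd2a, the transporter of lysophosphatidylcholine, was combined with a Cre transgene driven by Pdgfra, and 4 O4 and 4 OPC libraries were made. The 2afl/fl mice carried the same floxed allele, served as controls, and gave 3 O4 and 3 OPC libraries. Each library was made from 900 ng of total RNA. Pdgfra is thus both the driver of the deletion and the antigen of the OPC sort, and it is also known from meningeal fibroblasts. The labels number the libraries within each group but do not tie a library to a mouse, so p-values measure the spread between these libraries.

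Ceramide synthases join a fatty acid to a sphingoid base, and each enzyme prefers fatty acids of certain lengths. In oligodendrocytes, Fa2h hydroxylates the fatty acid, Ugt8a adds galactose to the ceramide to give galactosylceramide, and Gal3st1 adds sulfate to give sulfatide, while Galc removes the galactose in the lysosome. Galactosylceramide and sulfatide are abundant lipids of myelin, and the O4 antibody binds sulfatide. The O4 beads therefore selected cells at least in part by the product of Ugt8a and Gal3st1. A higher level of these genes in O4 libraries cannot be told apart from that selection.

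Promoters of Ugt8a and Gal3st1 are shown because these are the synthesis steps of the antigen, and those of Cers2 and Cers4 because these ceramide synthases differed between the sorts in opposite directions. The windows run from 250 bases before to 50 bases after the start site, 5′ to 3′ on the strand of the gene, from RefSeq on GRCm38.p6, an earlier build than the mm39 of the counts. Capitals mark a GC box (GGGCGG) or a SOX-type motif (ACAAAG or ACAATG), each searched on both strands. Promoters of 9 of the 10 genes were matched, and Fa2h was not.
Ugt8a, chr3:125938603-125938902, minus strand: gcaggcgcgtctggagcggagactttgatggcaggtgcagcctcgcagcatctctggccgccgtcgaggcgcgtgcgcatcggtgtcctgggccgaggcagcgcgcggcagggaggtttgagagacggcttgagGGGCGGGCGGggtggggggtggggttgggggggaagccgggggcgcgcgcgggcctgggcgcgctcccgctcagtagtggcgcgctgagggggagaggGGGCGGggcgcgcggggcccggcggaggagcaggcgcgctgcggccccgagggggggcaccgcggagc
Gal3st1, chr11:3983386-3983685, plus strand: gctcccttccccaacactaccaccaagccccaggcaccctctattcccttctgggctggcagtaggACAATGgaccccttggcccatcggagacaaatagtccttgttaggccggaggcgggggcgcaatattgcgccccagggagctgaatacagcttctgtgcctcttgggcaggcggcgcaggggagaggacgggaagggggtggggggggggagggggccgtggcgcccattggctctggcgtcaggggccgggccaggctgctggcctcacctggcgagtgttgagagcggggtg
Cers2, chr3:95314940-95315239, plus strand: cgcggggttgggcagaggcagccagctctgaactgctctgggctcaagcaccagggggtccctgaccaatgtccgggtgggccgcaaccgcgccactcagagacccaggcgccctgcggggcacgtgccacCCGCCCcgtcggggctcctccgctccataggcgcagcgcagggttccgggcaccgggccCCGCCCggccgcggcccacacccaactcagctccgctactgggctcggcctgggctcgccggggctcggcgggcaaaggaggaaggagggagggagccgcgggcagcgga
Cers4, chr8:4493155-4493454, plus strand: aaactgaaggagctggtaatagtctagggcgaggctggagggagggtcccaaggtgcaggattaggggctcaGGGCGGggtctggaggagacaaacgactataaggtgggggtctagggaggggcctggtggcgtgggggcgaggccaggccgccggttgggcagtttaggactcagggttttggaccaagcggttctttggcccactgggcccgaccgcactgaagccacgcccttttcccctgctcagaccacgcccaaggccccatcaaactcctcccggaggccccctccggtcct
The Ugt8a window held 3 GC boxes, of which 2 overlap, and 78.3% of its bases were G or C. The Gal3st1 window, taken at the most upstream of 3 listed starts, held no GC box and 1 SOX-type motif that begins at position -184 from the start site. Cers2 held 2 GC boxes and Cers4 held 1, and neither held a SOX-type motif. Over all 32851 promoter windows of this length, 35.7% held a GC box and 28.6% a SOX-type motif, so a match is common and describes the letters only.

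Over the whole series, the libraries held an estimated 32900000 to 44100000 counted reads and 16964 to 17662 genes above 0. Mfsd2a, the targeted gene, ranged from 3615 to 7101 normalised counts in 2aOKO O4 against 6762 to 12885 in 2afl/fl O4, and from 3665 to 7188 in 2aOKO OPC against 7585 to 16343 in 2afl/fl OPC. Its log2 fold change was -0.61 in O4 and -0.74 in OPC, and neither passed the threshold (limma). The libraries of the genotypes overlapped in O4 and did not in OPC, where 4.75% of all genes did not overlap. In both sorts the libraries numbered 3 were the lowest of the 2aOKO group and the highest of the 2afl/fl group in Mfsd2a. The libraries of other numbers lay closer together, at 6536 to 7101 in 2aOKO O4 against 6762 to 7777 in 2afl/fl O4. In OPC they were at 6843 to 7188 in 2aOKO against 7585 to 7979 in 2afl/fl. Between the sorts, 17.6% of all genes were called higher and 15.5% lower in O4 in 2aOKO (limma, adjusted p under 0.05). In 2afl/fl 14.3% were higher and 12.2% lower. All 14 markers of immature and myelinating oligodendrocytes were higher in O4 than in OPC in both genotypes, and of 8 OPC markers 7 were lower in 2aOKO and 6 in 2afl/fl. Their sums ran from 945220 to 1611290 normalised counts in 2aOKO O4 and from 163655 to 193386 in 2aOKO OPC for the oligodendrocyte list, and from 582327 to 1967460 in 2afl/fl O4 and from 139795 to 218970 in 2afl/fl OPC. The OPC list summed to 429906 to 560583 in 2aOKO O4 and 721700 to 848812 in 2aOKO OPC, and to 371754 to 616002 in 2afl/fl O4 and 735410 to 865544 in 2afl/fl OPC. Pdgfra itself was still at 123976 to 185308 in 2aOKO O4, against 262484 to 312783 in 2aOKO OPC.

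Markers of some other cell types moved with the sort as well. The shares over all genes were 17.6% higher and 15.5% lower in 2aOKO, and 14.3% higher and 12.2% lower in 2afl/fl. Of 10 microglia markers, 9 were higher in O4 in 2aOKO and 8 in 2afl/fl, with sums of 7776 to 11911 in 2aOKO O4 against 3623 to 4303 in 2aOKO OPC and of 7401 to 11890 in 2afl/fl O4 against 3153 to 5011 in 2afl/fl OPC. Of 7 astrocyte markers 4 were higher in each genotype, and their sums were 30063 to 38332 in 2aOKO O4 against 27567 to 29412 in 2aOKO OPC, and 24326 to 36151 in 2afl/fl O4 against 24079 to 28847 in 2afl/fl OPC. Border macrophage markers rose too, 5 of 5 in 2aOKO and 4 of 5 in 2afl/fl, with sums of 1115 to 1469 in 2aOKO O4 against 247 to 324 in 2aOKO OPC and of 1142 to 1513 in 2afl/fl O4 against 255 to 323 in 2afl/fl OPC. Of the tested meningeal fibroblast markers, 5 of 5 were lower in O4 in each genotype, with sums of 7547 to 14552 in 2aOKO O4 against 22436 to 29066 in 2aOKO OPC and of 10250 to 16108 in 2afl/fl O4 against 27860 to 38216 in 2afl/fl OPC. No marker list had a member at 0 in all libraries. No endothelial, ependymal or erythroid marker was called between the sorts, and 1 of 5 pericyte markers was lower in each genotype. Of 9 neuronal markers 3 were lower in 2aOKO, while 2 were higher and 2 lower in 2afl/fl. Beside the shares over all genes, the small pericyte and neuronal counts are not read as a result. The ependyma and choroid plexus sums were large and uneven within groups. They were 98618 to 246802 in 2aOKO O4 and 63065 to 309938 in 2afl/fl O4. In OPC they were 107005 to 198699 in 2aOKO and 89644 to 285535 in 2afl/fl. Endothelial sums were 16844 to 29373 in 2aOKO O4 and 20196 to 38601 in 2afl/fl O4. In OPC they were 18319 to 31472 in 2aOKO and 19766 to 30183 in 2afl/fl. The part of these cells in the values below was not tested.

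The galactolipid synthesis genes were much higher in O4 than in OPC in both genotypes, and Fa2h led them. Of the 10 genes, 5 were higher and 1 lower in O4 at an adjusted p under 0.05 in 2aOKO (limma, all 14 libraries, Benjamini-Hochberg over 15565 genes), where 33.1% of all genes were called, 17.6% higher and 15.5% lower. In 2afl/fl 6 were higher and 1 lower, where 26.5% of all genes were called, 14.3% higher and 12.2% lower. The median log2 fold change of the 10 genes was 0.37 in 2aOKO and 0.48 in 2afl/fl, against -0.02 and -0.01 over all genes tested. The libraries of O4 and OPC did not overlap for 7 of the 10 genes in each genotype, where 40.5% of all genes did not overlap in 2aOKO and 34.1% in 2afl/fl. With a fit to the 2afl/fl libraries alone, 3 of the 10 genes passed in that genotype (Fa2h, Ugt8a and Gal3st1). Without all libraries numbered 3, which stand apart in Mfsd2a, 6 were called in each genotype. In these bulk samples, fewer cells of a type and less RNA per cell cannot be told apart.

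**Figure D1:**
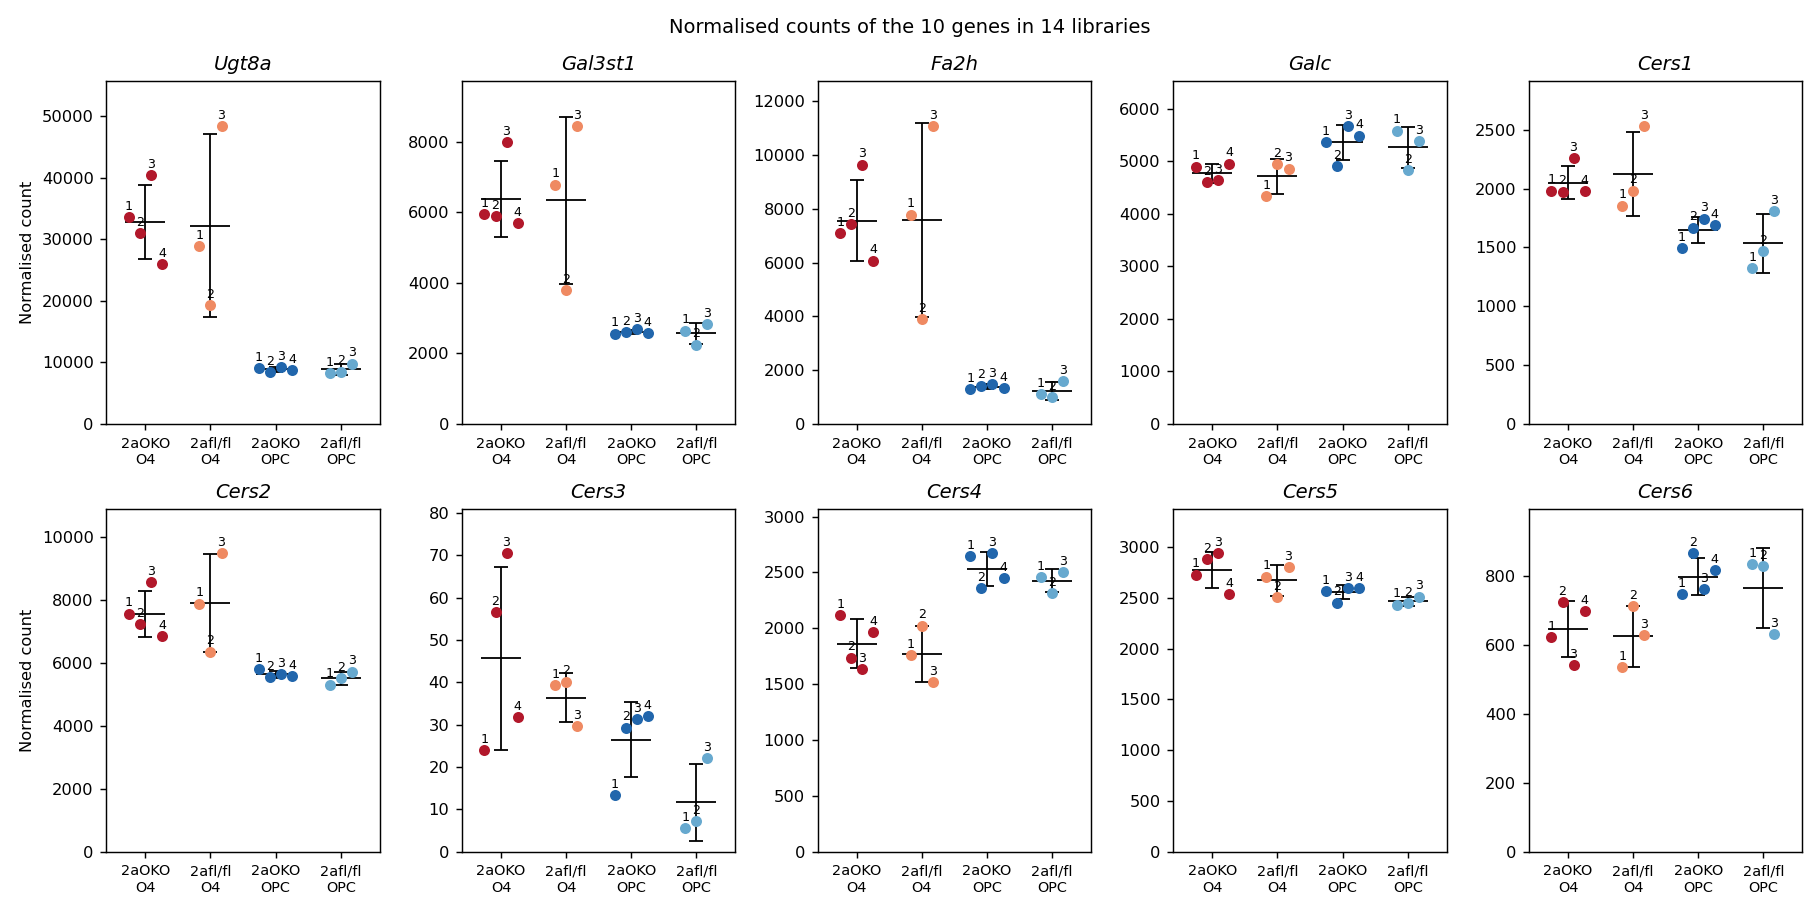
Normalised counts (y axis, each panel from 0) of the 10 genes in 2aOKO O4, 2afl/fl O4, 2aOKO OPC and 2afl/fl OPC libraries. Points are libraries with their number, and black bars are the mean and SD of 4 (2aOKO) or 3 (2afl/fl) libraries. Fa2h, Ugt8a and Gal3st1 in O4 lie above all OPC libraries, Cers4 in O4 lies below them, and 2aOKO and 2afl/fl overlap in every panel.

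Fa2h (mm39 chromosome 8, 112071770 to 112120454, minus strand) makes the hydroxylated fatty acids of myelin galactolipids. Its normalised counts in libraries 1 to 4 were 7095, 7424, 9650 and 6074 in 2aOKO O4, against 1313, 1428, 1487 and 1343 in 2aOKO OPC. In libraries 1 to 3 they were 7785, 3903 and 11093 in 2afl/fl O4, against 1108, 987 and 1587 in 2afl/fl OPC. Every O4 library was above every OPC library, and within 2afl/fl O4 library 3 held 2.84 times the count of library 2. The log2 fold change was 2.42 ± 0.24 (SE) in 2aOKO, a 5.36-fold difference (95% interval 3.74 to 7.67, adjusted p = 6.78e-06), and 2.53 ± 0.28 in 2afl/fl, 5.79-fold (3.82 to 8.76, adjusted p = 3.36e-05).

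Ugt8a (chromosome 3, 125658921 to 125732302, minus strand), the enzyme that commits ceramide to galactosylceramide, was the most abundant of the 10 genes in O4, in counts and also per kilobase. It had 33620, 31050, 40406 and 26003 normalised counts in 2aOKO O4 libraries 1 to 4, against 9073, 8372, 9201 and 8821 in 2aOKO OPC. The 2afl/fl libraries 1 to 3 had 28954, 19269 and 48452 in O4, against 8281, 8501 and 9825 in OPC. The sorts did not overlap in either genotype, and no OPC library held fewer than 8281 counts in 2afl/fl or 8372 in 2aOKO. The log2 fold change of 1.87 ± 0.20 in 2aOKO (95% interval 1.44 to 2.30, 3.65-fold, adjusted p = 1.44e-05) stood beside 1.76 ± 0.23 in 2afl/fl (1.26 to 2.26, 3.39-fold, adjusted p = 0.000161).

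Gal3st1 (chromosome 11, 3933636 to 3949329, plus strand), the sulfotransferase that completes sulfatide, had the smallest fold difference of these synthesis genes. In 2aOKO its counts were 5952, 5893, 7979 and 5683 in O4 libraries 1 to 4, against 2565, 2611, 2693 and 2579 in OPC. In 2afl/fl they were 6785, 3787 and 8451 in O4 libraries 1 to 3, against 2650, 2248 and 2834 in OPC. All O4 libraries lay above all OPC libraries. The difference was 2.42-fold in 2aOKO (95% interval 1.84 to 3.17, adjusted p = 0.000166) and 2.34-fold in 2afl/fl (1.71 to 3.20, adjusted p = 0.00121).

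Ratios of normalised counts within a library set the steps of the pathway against each other. Fa2h per Ugt8a was 0.231 ± 0.013 (SD, n = 4) in 2aOKO O4 and 0.157 ± 0.011 in 2aOKO OPC, and 0.233 ± 0.033 (n = 3) in 2afl/fl O4 and 0.137 ± 0.023 in 2afl/fl OPC. Gal3st1 per Ugt8a went the other way, with 0.196 ± 0.017 in 2aOKO O4 and 0.295 ± 0.012 in 2aOKO OPC, and 0.202 ± 0.030 in 2afl/fl O4 and 0.291 ± 0.028 in 2afl/fl OPC. For both ratios the O4 and OPC libraries did not overlap within either genotype. These ratios were not put to a test of their own.

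Galc (chromosome 12, 98168559 to 98225719, minus strand), the lysosomal enzyme that degrades galactosylceramide, did not follow the synthesis genes. It had 4898, 4603, 4639 and 4956 normalised counts in 2aOKO O4, against 5366, 4903, 5677 and 5491 in 2aOKO OPC. The 2afl/fl libraries had 4336, 4946 and 4863 in O4, against 5585, 4836 and 5390 in OPC. The sorts overlapped in both genotypes, and neither difference passed the threshold: the log2 fold change was -0.17 ± 0.07 in 2aOKO (adjusted p = 0.0768) and -0.16 ± 0.08 in 2afl/fl (adjusted p = 0.150). With libraries scaled to equal totals, the median of all genes moved to -0.13 in 2aOKO and -0.12 in 2afl/fl, and the share of called genes that were higher in O4 fell to 33.7% and 34.6%, against 53.2% and 53.9% with the deposited scaling. Under that scaling Galc was called lower in both genotypes (-0.28, adjusted p = 0.00679, and -0.27, adjusted p = 0.0221), which is -0.15 relative to the median in each. Per unit of Ugt8a, Galc stood at 0.150 ± 0.031 in 2aOKO O4 and 0.604 ± 0.018 in 2aOKO OPC, and at 0.169 ± 0.080 in 2afl/fl O4 and 0.597 ± 0.068 in 2afl/fl OPC.

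**Figure D2:**
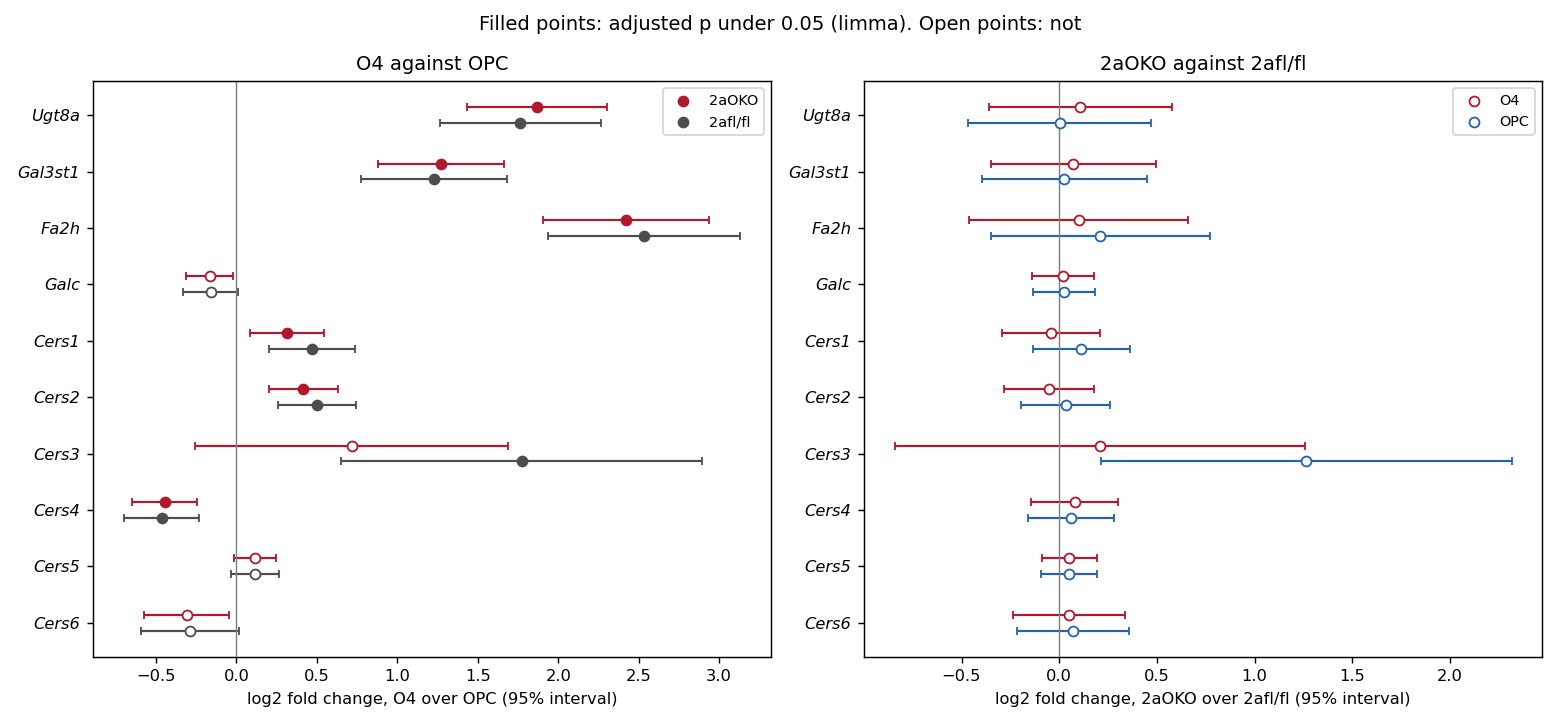
Log2 fold changes (x axis) with 95% intervals of the 10 genes, O4 over OPC on the left (2aOKO red, 2afl/fl grey) and 2aOKO over 2afl/fl on the right (O4 red, OPC blue). Filled points have an adjusted p under 0.05 in limma. Fa2h stands at 2.42 and 2.53 on the left, and all points on the right are open.

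Among the ceramide synthases, Cers2 and Cers1 were higher and Cers4 lower in O4 in both genotypes, while Cers5 and Cers6 did not pass the threshold and Cers3 passed it in 2afl/fl only. Cers2 (chromosome 3, 95222501 to 95230911, plus strand) makes the very long chain ceramides typical of myelin. Its counts were 7574, 7236, 8577 and 6864 in 2aOKO O4, against 5796, 5542, 5659 and 5590 in 2aOKO OPC. In 2afl/fl they were 7890, 6364 and 9484 in O4, against 5313, 5529 and 5724 in OPC. No O4 library fell to the level of an OPC library. The difference of 1.33-fold in 2aOKO (95% interval 1.15 to 1.55, adjusted p = 0.00523) and 1.41-fold in 2afl/fl (1.19 to 1.68, adjusted p = 0.00632) was smaller than that of Fa2h or Ugt8a, with intervals that do not overlap theirs. The annotated span of Cers2 overlaps that of Setdb1 on the other strand by 76 bases.

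Cers4 (chromosome 8, 4543405 to 4576080, plus strand), which prefers shorter acyl chains than Cers2, was the one member of the family called lower in O4. It had 2120, 1738, 1635 and 1963 counts in 2aOKO O4, against 2648, 2361, 2670 and 2447 in 2aOKO OPC. The 2afl/fl values were 1760, 2024 and 1521 in O4, against 2460, 2314 and 2506 in OPC. The sorts did not overlap. The level in O4 was lower by 26.6% in 2aOKO (log2 fold change -0.45 ± 0.10, adjusted p = 0.00272) and by 27.6% in 2afl/fl (-0.47 ± 0.11, adjusted p = 0.00768). Leaving out all libraries numbered 3, an alternative added after seeing the data, ended the call in 2afl/fl (-0.34, adjusted p = 0.0862).

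Cers6 (chromosome 2, 68691785 to 68944628, plus strand) and Cers5 (chromosome 15, 99633473 to 99670397, minus strand) both favour palmitoyl chains. Cers6 counts were 621, 724, 542 and 697 in 2aOKO O4, against 748, 865, 761 and 816 in 2aOKO OPC, with no overlap. In 2afl/fl they were 536, 712 and 627 in O4, against 835, 827 and 630 in OPC, where the lowest OPC library lay within the O4 range. The log2 fold change of Cers6 was -0.31 ± 0.12 in 2aOKO (adjusted p = 0.0674) and -0.29 ± 0.14 in 2afl/fl (adjusted p = 0.152). With the replicate number as a block, the same difference in 2aOKO passed the threshold (limma, adjusted p = 0.0251). That block gives all libraries of one number a shared term, across sorts and genotypes. With the block set within genotype, which pairs only O4 and OPC libraries of one number, the difference also passed (limma, adjusted p = 0.0367). Ratios of O4 to OPC within a number ran from 0.642 to 0.995 in 2afl/fl and from 0.713 to 0.854 in 2aOKO. How many of all genes keep one direction in every such pair was not computed. Cers5 had the smallest fold change of the family, with 2772 ± 178 (SD) in 2aOKO O4 and 2552 ± 68.9 in 2aOKO OPC, and 2672 ± 154 in 2afl/fl O4 and 2465 ± 42.0 in 2afl/fl OPC. Its log2 fold change was 0.12 in each genotype (adjusted p = 0.162 and 0.255), and the 95% interval reached no further than 0.25 in 2aOKO and 0.27 in 2afl/fl.

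Cers1 (chromosome 8, 70768425 to 70784239, plus strand), best known from neurons, cannot be read apart from Gdf1, with which it shares a transcript. The annotated spans overlap over all 15815 bases on the same strand, and the deposited counts of Gdf1 were 0.933 to 1.06 times those of Cers1 as group means. Another 96 bases overlap Upf1 on the other strand. Under the Cers1 name the libraries had 1982, 1974, 2260 and 1980 counts in 2aOKO O4, against 1492, 1668, 1744 and 1689 in 2aOKO OPC. The 2afl/fl libraries had 1855, 1982 and 2533 in O4, against 1324, 1469 and 1808 in OPC. The groups did not overlap, and the difference was 1.24-fold in 2aOKO (95% interval 1.06 to 1.46, adjusted p = 0.0371) and 1.38-fold in 2afl/fl (1.15 to 1.66, adjusted p = 0.0138). The call in 2aOKO was lost when any one of OPC libraries 1, 2 and 4 or O4 libraries 1, 2, 3 and 4 of 2aOKO was left out (log2 fold change 0.27 to 0.33, adjusted p 0.0518 to 0.112). That in 2afl/fl was lost without OPC library 1 (0.37, adjusted p = 0.0639) or O4 library 3 (0.33, adjusted p = 0.0650).

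Cers3 (chromosome 7, 66393252 to 66473441, plus strand), known for ultra-long ceramides of skin and testis, was at the edge of detection. Its normalised counts were 23.9, 56.7, 70.5 and 31.7 in 2aOKO O4, against 13.3, 29.3, 31.3 and 32.0 in 2aOKO OPC. In 2afl/fl they were 39.3, 40.2 and 29.7 in O4, against 5.67, 7.28 and 22.1 in OPC. Expressed as reads, the 14 libraries held between 6 and 62 each, and 6 reads carry an exact 95% Poisson interval of 2.20 to 13.1, which covers counting error only. The sorts overlapped in 2aOKO (log2 fold change 0.72 ± 0.46, adjusted p = 0.252) and did not in 2afl/fl (1.77 ± 0.53, adjusted p = 0.0228). The call in 2afl/fl was lost without OPC library 1 (1.42, adjusted p = 0.0882), OPC library 2 (1.58, adjusted p = 0.0741) or O4 library 1 (1.71, adjusted p = 0.0703). Without all libraries numbered 3 it was 2.45 and still called (adjusted p = 0.0268).

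**Figure D3:**
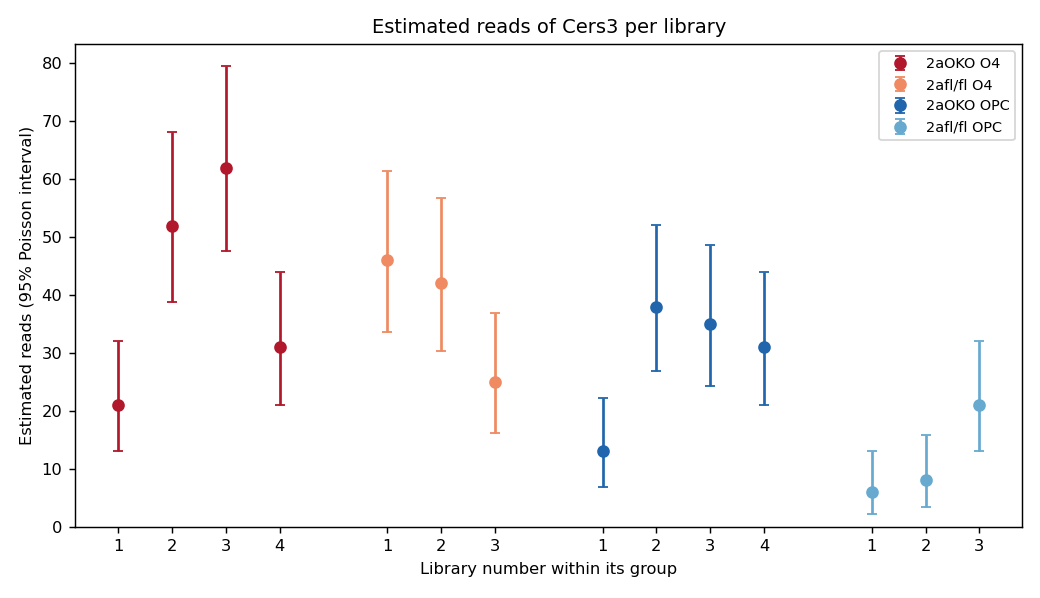
Estimated reads of Cers3 (y axis) in each library (x axis, library number within its group), with exact 95% Poisson intervals for counting error. The 2aOKO OPC libraries hold 13 to 38 reads and the 2afl/fl OPC libraries 6 to 21, and the intervals of 2afl/fl OPC library 3 and 2aOKO OPC library 1 overlap.

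Levels of different genes were compared per kilobase of the principal transcript (lengths from GENCODE M21, on the earlier build). In O4 the order was led by Ugt8a, with 8711 ± 1593 (SD) normalised counts per kilobase in 2aOKO and 8566 ± 3951 in 2afl/fl, above the next gene in each group. Cers2 (3413 ± 332 in 2aOKO), Gal3st1 (3394 ± 572) and Fa2h (3034 ± 605) came next and did not differ beyond their spread. Cers5 (1322 ± 84.8) and Galc (1246 ± 46.7) overlapped as well, and Cers1, Cers4, Cers6 and Cers3 followed at 751, 197, 91.8 and 39.4. Since Cers1 cannot be read apart from Gdf1, its place in the order is uncertain in both sorts. In OPC the order was different: Cers2 came first (2548 in 2aOKO, 2492 in 2afl/fl), closely followed by Ugt8a (2357 ± 97.2 and 2357 ± 222). Fa2h, at 559 ± 31.9 in 2aOKO OPC and 492 ± 127 in 2afl/fl OPC, ranked the seventh there and overlapped the level of Cers1 in each genotype.

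Within the ceramide synthases alone, each gene's share of the summed level per kilobase was computed in every library. Cers2 held 58.6% ± 1.4 (SD, n = 4) in 2aOKO O4 and 53.4% ± 0.9 in 2aOKO OPC, and 59.9% ± 3.6 (n = 3) in 2afl/fl O4 and 54.1% ± 0.5 in 2afl/fl OPC. The share of Cers5 was 22.8% and 21.7% in 2aOKO and 2afl/fl O4, against 25.5% and 25.6% in the OPC libraries of those genotypes. That of Cers4 was 3.41% and 3.23% in O4, against 5.59% and 5.57% in OPC, and that of Cers6 was 1.60% and 1.53% in O4, against 2.38% and 2.37% in OPC. Cers1 kept 12.2% to 13.1% in all groups, and Cers3 stayed below 1% in every library. Counts under the Cers1 name cannot be read apart from Gdf1. The share of Cers1, and with it the size of every other share, carries that limit. Lengths of merged exons in place of the principal transcript gave Cers2 62.9% and 64.0% in O4, against 57.7% and 58.4% in OPC, so the direction was the same.

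**Figure D4:**
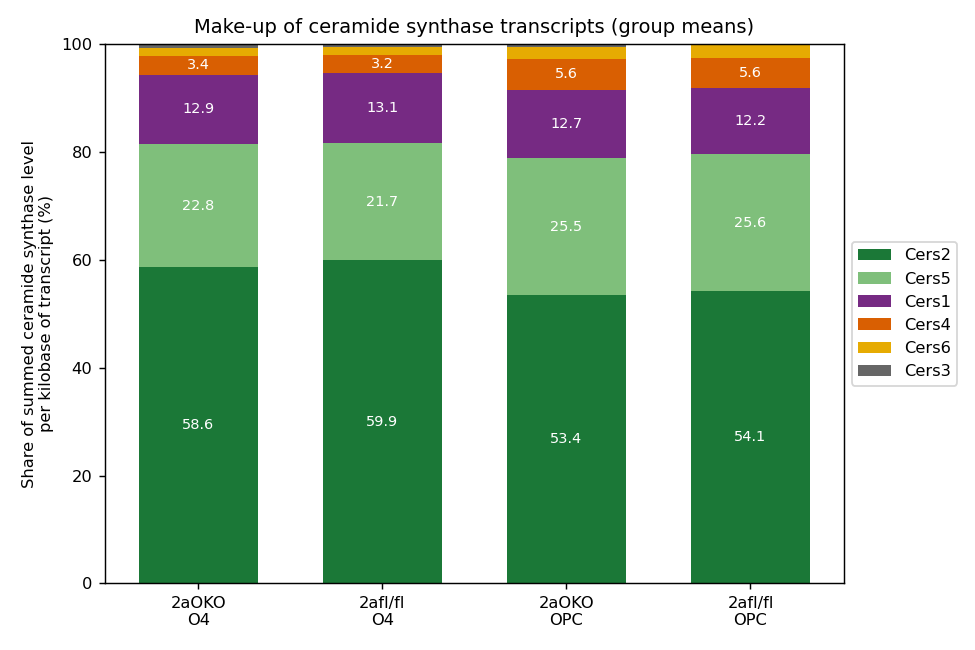
Share of each ceramide synthase (y axis, percent of their summed level per kilobase of transcript) as means of the libraries of 2aOKO O4, 2afl/fl O4, 2aOKO OPC and 2afl/fl OPC. Cers2 takes 58.6% and 59.9% in the O4 bars and 53.4% and 54.1% in the OPC bars, and Cers4 takes 3.41% and 3.23% against 5.59% and 5.57%. Cers1 cannot be read apart from Gdf1, so the size of all shares is uncertain to that extent.

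None of the 10 genes was called between 2aOKO and 2afl/fl in either sort. In O4, 0 of the 10 passed, where 0% of all genes tested were called by limma after adjustment and 450 (2.89%) had an unadjusted p under 0.05, none of them a member. In OPC, 0 of the 10 passed, where 0% of all genes were called and 251 (1.61%) had an unadjusted p under 0.05, and Cers3 was the one member among these. The libraries of 2aOKO and 2afl/fl overlapped for all 10 genes in both sorts, where 2.67% of all genes did not overlap in O4 and 4.75% in OPC. Since a missed threshold is no sign of equal levels, the intervals are given.

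Ugt8a differed by 7.83% in O4 (95% interval -22.0 to 49.2%, 2aOKO over 2afl/fl) and by 0.196% in OPC (-27.6 to 38.6%). For Gal3st1 the difference was 5.06% in O4 (-21.6 to 40.8%) and 1.81% in OPC (-24.0 to 36.5%), and for Fa2h it was 7.11% in O4 (-27.3 to 57.9%) and 15.8% in OPC (-21.5 to 70.6%). Galc differed by 1.37% in O4 (-9.13 to 13.1%) and 1.72% in OPC (-8.82 to 13.5%), and Cers5 by 3.66% in O4 (-6.05 to 14.4%) and 3.52% in OPC (-6.18 to 14.2%). Cers2 differed by -3.49% in O4 (-17.7 to 13.1%) and 2.29% in OPC (-12.7 to 19.9%), and Cers4 by 5.58% in O4 (-9.38 to 23.0%) and 4.22% in OPC (-10.5 to 21.4%). For Cers1 the difference was -2.78% in O4 (-18.2 to 15.6%) and 8.20% in OPC (-9.00 to 28.6%), and for Cers6 it was 3.48% in O4 (-15.1 to 26.1%) and 5.04% in OPC (-13.8 to 27.98%). For 8 of the 10 genes in each sort, the interval lay within 1.5-fold in either direction. Fa2h and Cers3 were the exceptions in both. The log2 fold changes in O4 of Fa2h (0.10), Ugt8a (0.11) and Gal3st1 (0.07) turned to -0.32, -0.21 and -0.26 without 2afl/fl O4 library 2, and none was called.

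Cers3 had the widest genotype difference of the family. Its mean was 26.5 ± 8.9 (SD, n = 4) in 2aOKO OPC and 11.7 ± 9.1 (n = 3) in 2afl/fl OPC, a log2 fold change of 1.27 ± 0.49 with an unadjusted p of 0.0215 that did not pass after adjustment (limma, 15565 genes). The lowest 2aOKO OPC library, at 13.3, lay below the highest 2afl/fl OPC library, at 22.1, so the groups overlapped. In O4 the means were 45.7 ± 21.6 in 2aOKO and 36.4 ± 5.8 in 2afl/fl (log2 fold change 0.21 ± 0.49, adjusted p = 0.999). Without all libraries numbered 3 the log2 fold change of Cers3 was 1.71 in OPC and -0.17 in O4, and neither was called. The study named Cers3 from these same libraries, so its value here is not independent evidence. The study used a fold of 1.25 with an unadjusted p under 0.05 from DESeq2. At those cut-offs in limma here, 0.553% of all genes were higher in 2aOKO OPC, and Cers3 was among them.

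The genotype difference in O4 minus that in OPC was computed as an interaction, and 0 of the 10 genes passed, where 0% of all genes were called by limma and 132 (0.848%) had an unadjusted p under 0.05. The interaction of Cers3 was -1.06 ± 0.70 on the log2 scale (95% interval -2.54 to 0.43), that of Cers1 -0.15 ± 0.17, and those of the other 8 genes lay between -0.11 and 0.11. The O4 over OPC difference of Cers3, called in 2afl/fl and not in 2aOKO, is thus not shown to differ between the genotypes.

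Among the O4 libraries, Fa2h, Ugt8a, Gal3st1 and Cers2 shared one order at the extremes. In 2afl/fl O4, library 2 was lowest and library 3 highest in all 4 genes, by factors of 2.84, 2.51, 2.23 and 1.49. In 2aOKO O4, library 4 was lowest and library 3 highest, by 1.59, 1.55, 1.40 and 1.25. Cers5, which was not called between the sorts, had the same lowest and highest libraries, by 1.12 in 2afl/fl O4 and 1.16 in 2aOKO O4. So had Mag, a gene of myelin, by 2.83 in 2afl/fl O4 and by 1.97 in 2aOKO O4. Cers4 ran the other way in 2afl/fl O4, with library 3 the lowest and library 2 the highest. In 2aOKO O4 library 3 was again the lowest for Cers4, but library 1 was the highest (2120), with library 4 at 1963. Among the O4 libraries, the OPC marker sums were highest in 2afl/fl O4 library 2 (616002) and in 2aOKO O4 library 4 (560583), and their part in these values was not tested.

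Across all 14 libraries, which share the contrast of the sorts and so cannot be taken as independent points, Fa2h correlated with Ugt8a at r = 0.99 and with Gal3st1 at r = 0.99 (Pearson, log2 values). Cers2 correlated with Gal3st1 at r = 0.97 and Cers4 with Gal3st1 at r = -0.93, and Galc with Pdgfra at r = 0.86. The genes most like each member over the 14 libraries were listed as a description only. For Fa2h they were Map6d1, Tmcc2, Usp20, Pdcd4 and Dbndd2 (r = 0.996 to 0.997), and for Ugt8a Rap2a, Marchf8, Cpox, Llgl1 and Cilk1 (0.997 to 0.999). For Gal3st1 they were Thra, Tmem189, Tmem163, Gltp and Golga7 (0.995 to 0.997), of which Gltp, a glycolipid transfer protein, belongs to the pathway lists. For Cers2 they were Dbt, 4833439L19Rik, Tprgl, Mapre1 and Cldnd1 (0.983 to 0.987). Galc was most like Pde1c, Kcnt2, Dgkb, Slc35f1 and Pcdh19 (0.934 to 0.952), and Cers4 like 2310015A10Rik, Cx3cl1, Camk1d, Bcl2 and Slc9a5 (0.971 to 0.980). Cers6 was most like Gxylt2, Slfn9, Haus6, Bnip2 and Phldb2 (0.895 to 0.961), and Cers3 like Nthl1, Tepsin, Klhl26, Dedd2 and Zbed5 (0.875 to 0.929), the lowest likeness of the 8 genes compared.

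The other genes of sphingolipid metabolism moved in both directions. Of 54 tested genes on 5 lists, 11 were higher and 9 lower in O4 in 2aOKO, and 8 were higher and 5 lower in 2afl/fl, where 33.1% and 26.5% of all genes were called. Their median log2 fold change was -0.01 in 2aOKO and -0.04 in 2afl/fl. The count in 2afl/fl was 8 without O4 library 1, 8 without O4 library 3 and 23 without O4 library 2. No gene of these lists was called between the genotypes in either sort (limma, 0 of 54).

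Some steps next to the antigen were among those that rose, though most of these genes were not called. Of 14 genes for donors, carriers and breakdown of galactolipids, 4 were higher in each genotype and none lower. Of all genes, 17.6% were higher and 15.5% lower in 2aOKO, and 14.3% higher and 12.2% lower in 2afl/fl. Gltp averaged 15568 ± 2773 (SD) in 2aOKO O4 and 6115 ± 223 in 2aOKO OPC (log2 fold change 1.33, adjusted p = 0.000135), and 15776 ± 5916 in 2afl/fl O4 and 5967 ± 683 in 2afl/fl OPC (1.33, adjusted p = 0.000795). Slc35b2, which carries the sulfate donor into the Golgi, rose by 0.59 in 2aOKO and 0.61 in 2afl/fl, and Slc35a2, which carries UDP-galactose, by 0.35 in each. Arsa, which removes the sulfate of sulfatide, rose by 0.31 in 2afl/fl and had a value of 0.17 in 2aOKO (adjusted p = 0.104).

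In the synthesis of sphingoid bases, 3 of 11 genes were higher and 1 lower in 2aOKO, and 2 higher in 2afl/fl. The shares over all genes were 17.6% higher and 15.5% lower in 2aOKO, and 14.3% higher in 2afl/fl. Degs1, the desaturase that turns dihydroceramide into ceramide, rose by 0.53 and 0.46 in 2aOKO and 2afl/fl, and Ormdl2, a regulator of serine palmitoyltransferase, by 0.53 and 0.67. Sptlc2, a subunit of that enzyme, rose by 0.17 and Ormdl3 fell by 0.20 in 2aOKO, with values of 0.17 (adjusted p = 0.0795) and -0.11 (adjusted p = 0.268) in 2afl/fl that did not pass. Sptssb, a small subunit, had values of -0.43 and -1.09 that passed in neither genotype.

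Enzymes that lead ceramide elsewhere were mixed. In glucosylceramide and ganglioside metabolism, 5 of 11 genes were lower and 1 higher in 2aOKO, and 2 were lower and 1 higher in 2afl/fl. The shares over all genes were 15.5% lower and 17.6% higher in 2aOKO, and 12.2% lower and 14.3% higher in 2afl/fl. St8sia1, which makes ganglioside GD3, fell by 0.77 in 2aOKO and 0.78 in 2afl/fl, and St3gal2 fell by 0.51 and 0.40. B4galnt1 and St8sia3 fell by 0.39 and 0.42 in 2aOKO, with values of -0.17 and -0.26 in 2afl/fl that did not pass. Of 8 sphingomyelin genes, the synthases Sgms2 (0.77) and Sgms1 (0.34) rose in 2aOKO, where their values in 2afl/fl were 0.64 and 0.20 and did not pass. The neutral sphingomyelinase Smpd3 fell by 0.61 and 0.71 in 2aOKO and 2afl/fl, and Smpd4 fell by 0.21 in 2aOKO, with -0.19 in 2afl/fl (adjusted p = 0.0601).

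Of 10 genes for ceramidases, ceramide kinase and sphingosine phosphate, Sphk2 rose by 0.40 in 2aOKO and 0.43 in 2afl/fl and Sgpl1, the sphingosine phosphate lyase, fell by 0.31 in each. Asah2, the neutral ceramidase, fell by 0.63 in 2afl/fl and had a value of -0.34 in 2aOKO (adjusted p = 0.135). Acer3 had values of 0.03 and 0.28 and Sphk1 of -0.73 and -0.74, which passed in neither genotype.

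**Figure D5:**
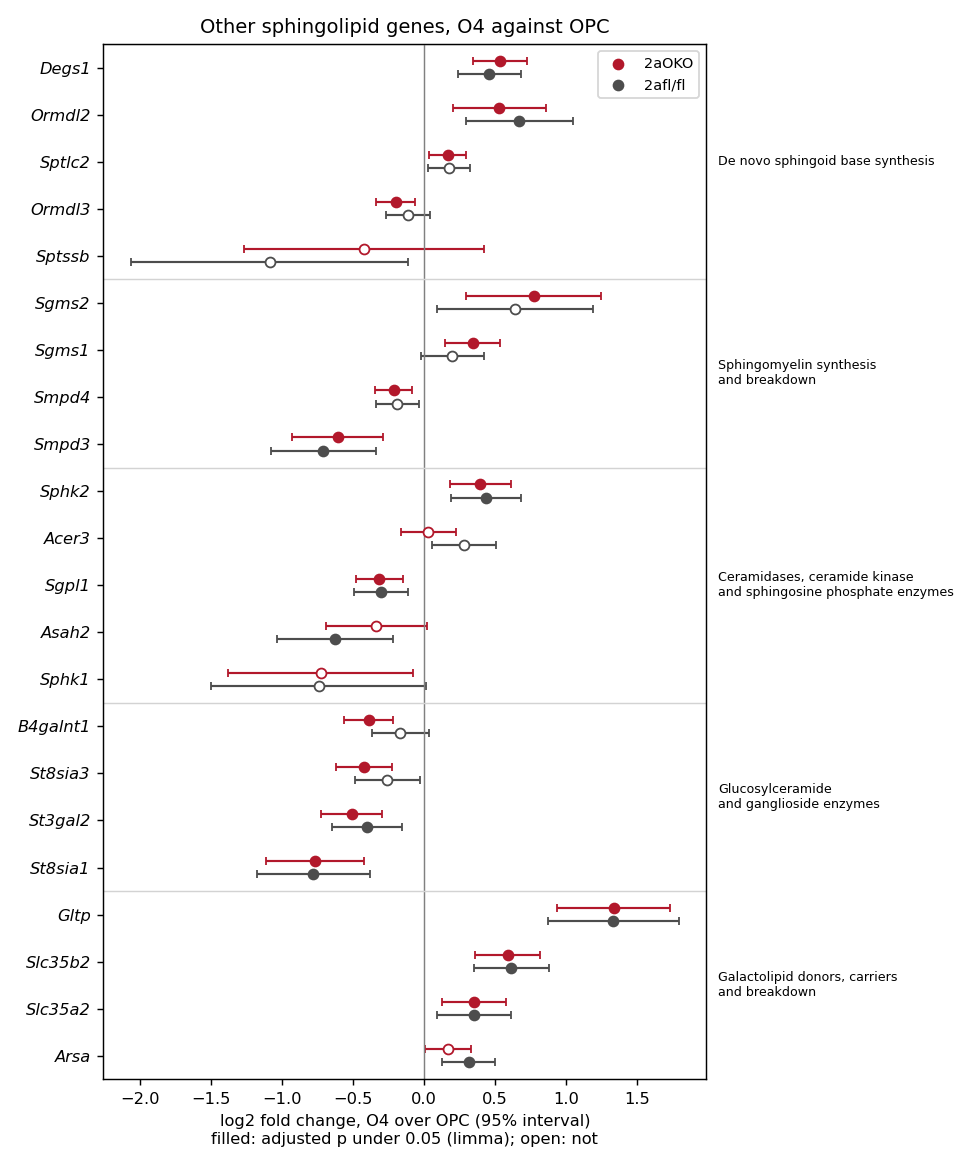
Log2 fold changes, O4 over OPC (x axis), with 95% intervals for sphingolipid genes named in the text, outside the 10 members, grouped by list (2aOKO red, 2afl/fl grey). Filled points have an adjusted p under 0.05 in limma. Gltp stands apart at 1.33 in both genotypes, and the 4 genes plotted from glucosylceramide and ganglioside metabolism lie below 0.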

How the data were processed

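Bulk RNA-seq was analysed from 14 libraries in 4 groups (O4 and OPC sorts of 2aOKO and 2afl/fl mice), grouped by the labels. What the authors deposited is a signal per gene, namely reads assigned to RefSeq genes after median-ratio scaling of each library. Their notes and methods name STAR 2.7.8a, the build mm39 and Partek Flow 10. Whether counting used strand is not given in the sources used here. The authors' tables of differential expression (p-value, false discovery rate, fold change from DESeq2) were left unused. Whole reads were not recoverable: 93.3 to 94.9% of values under 20 lay within 0.05 of a whole multiple of the value of 1 read (0.774 to 1.19), so no count model was run, and intervals on estimated reads cover counting error only.

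Values were transformed as log2(value + 1), so folds of low genes are understated. In R 4.3.3, limma 3.58.1 fitted 1 mean per group over all 14 libraries with an intensity trend, two-sided, for the 15565 of 18355 genes averaging 10 or more, with Benjamini-Hochberg adjustment and a threshold of 0.05. The fit was tested on simulated data. Named genes were the 10 members, Mfsd2a, from each of 5 sphingolipid lists the 4 genes with the smallest p in each sort comparison, and for 8 members the 5 genes with the highest Pearson correlation. Some genes that the rule names are not reported here. Pdgfra, Mag and the genes whose spans overlap a member were named outside this rule, after their values were seen. Members, lists and markers were chosen with earlier results of these data known. Of 59 listed sphingolipid symbols 54 were in the table. The replicate numbers were taken to pair O4 with OPC libraries within a genotype, from the data: deviations of libraries with the same number from their group means correlated at 0.160 to 0.328 in all 7 pairs, and each library correlated best with its own number. Between genotypes, libraries with the same number correlated at 0.0655 to 0.299, all above 0 but not all above 0.1. Libraries with different numbers gave -0.271 to 0.235, and the numbers were not read as pairs between genotypes. Some marker sums followed the number in both genotypes. Endothelial markers were lowest in library 3 of all 4 groups. Ependyma and choroid plexus markers were highest in library 1 of all 4, at 246802 in 2aOKO O4 and 309938 in 2afl/fl O4. Whether a number marks a shared preparation is not in the labels and was not tested. Alternatives were 10 planned settings, 14 settings that left out 1 library each, and 1 added after seeing the data.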

Additional observations from a re-analysis of the deposited data

Results flagged for a closer look

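In groups of 4 libraries, 3 values lay far from the other 3 of their group, by Dixon's criterion at 95%, which flags about 1 in 20 groups by chance. Gal3st1 was at 7979 normalised counts in 2aOKO O4 library 3, against 5683 to 5952 in the other 2aOKO O4 libraries. Cers1 was at 2260 in the same library, against 1974 to 1982 in the others. Cers3 was at 13.3 in 2aOKO OPC library 1, against 29.3 to 32.0 in the others. The cause of these values was not tested.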

How the results depend on the processing

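In O4 against OPC, Fa2h, Ugt8a and Gal3st1 were called in both genotypes under all 25 alternatives, as were Cers2 and Cers4 in 2aOKO, and Cers2 in 2afl/fl under all but the fit to the compared groups alone. The number of the 10 genes called ran from 5 to 7 in each genotype with 1 library left out. With only the groups compared in the fit it was 8 in 2aOKO and 3 in 2afl/fl, where Cers1 (adjusted p = 0.107), Cers2 (0.0744), Cers3 (0.0958) and Cers4 (0.0635) no longer passed in limma, with fewer libraries behind the spread. The call of Cers1 in 2aOKO was also lost with equal totals (0.20, adjusted p = 0.0998) and without the intensity trend (0.31, adjusted p = 0.0575), and that of Cers3 in 2afl/fl with library weights (1.86, adjusted p = 0.0864). Cers6 in 2aOKO was called with equal totals (-0.43, adjusted p = 0.0306), the compared groups alone (0.0284), library weights (0.0295) and without 2afl/fl OPC library 3 (0.0481). Galc was called with quantile normalisation in 2aOKO (-0.24, adjusted p = 0.0117) and 2afl/fl (-0.22, adjusted p = 0.0417), and in 2aOKO also with the compared groups alone (0.0352), library weights (0.0364) and without 2aOKO OPC library 2 (0.0433). With quantile normalisation 45.1% and 45.7% of called genes were higher in 2aOKO and 2afl/fl. The cause of these changes was not tested.

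With either replicate block, 7 of the 10 genes were called in each genotype, against 6 in 2aOKO and 7 in 2afl/fl without a block. Apart from Cers6 in 2aOKO, neither block changed a call of the 10. The block by number, whose terms the same numbers of 2aOKO and 2afl/fl share, called 0 of the 10 between genotypes.

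Of 717 values of single genes between genotypes or in the interaction under the alternatives, 0 were called and the lowest adjusted p was 0.273 in limma. The sign of such a value changed in the following cases. With library weights the log2 difference in O4 was -0.084 for Fa2h, -0.027 for Ugt8a and -0.091 for Gal3st1, and the interaction was -0.021 for Cers5, 0.069 for Cers6, -0.042 for Ugt8a, -0.11 for Gal3st1 and 0.032 for Galc. The interaction of Cers5 was -0.0012 with equal totals and -0.012 with quantile normalisation. Without all libraries numbered 3, chosen after seeing the data, the difference was -0.040 for Cers6 in OPC, 0.045 for Cers1, 0.027 for Cers2 and -0.17 for Cers3 in O4, and the interaction -0.022 for Cers4, 0.18 for Cers6 and 0.043 for Galc. With 1 library left out, the difference in OPC ran from -0.062 to 0.14 for Cers6, -0.045 to 0.079 for Ugt8a, -0.069 to 0.098 for Gal3st1 and -0.036 to 0.068 for Galc. In O4 it ran from -0.13 to 0.093 for Cers1, -0.20 to 0.089 for Cers2, -0.037 to 0.47 for Cers3, -0.025 to 0.18 for Cers4, -0.057 to 0.15 for Cers6, -0.32 to 0.44 for Fa2h, -0.21 to 0.45 for Ugt8a, -0.26 to 0.32 for Gal3st1 and -0.040 to 0.055 for Galc. The interaction ran from -0.23 to 0.056 for Cers2, -0.085 to 0.12 for Cers4, -0.044 to 0.043 for Cers5, -0.13 to 0.11 for Cers6, -0.53 to 0.22 for Fa2h, -0.21 to 0.45 for Ugt8a, -0.29 to 0.29 for Gal3st1 and -0.064 to 0.056 for Galc.

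The other sphingolipid genes called numbered 26 in 2aOKO and 1 in 2afl/fl with the compared groups alone, and 12 and 4 without the libraries numbered 3. Over all genes, 6425 and 848 were called with the compared groups alone and 3338 and 1279 without the libraries numbered 3, against 5145 in 2aOKO and 4128 in 2afl/fl. Without 2afl/fl O4 library 1 or 3 the count in 2afl/fl was 2475 or 2717, and without O4 library 3 of 2afl/fl, 4 genes were called between genotypes in O4. A minimum mean of 50 left Cers3 out, the compared groups alone give no interaction, and a block within genotype gives no genotype difference. Depth limits Cers3 alone among the 10, at 6 to 62 reads per library.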
